A study of Homo sapiens with 15 samples.

Results

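The genes described here are 36 genes of the protein folding machinery of the endoplasmic reticulum (ER) and of the unfolded protein response, the signalling system that adjusts that machinery to its load. They were given as a list of symbols, and each was found once among the 60664 gene IDs of the count files, on GRCh38. Of these genes, 35 were among the 16210 tested after removal of low counts. The remaining gene, DERL3, was too low to be tested. RNA was sequenced from T47D, an established luminal breast cancer line that expresses the estrogen receptor, in 15 libraries that fall into 5 groups of 3. The resistant cells, called TR here, were 4-hydroxytamoxifen (4-OHT) resistant T47D cells treated with erdafitinib and 4-OHT together (TR combination), erdafitinib alone (TR erdafitinib), 4-OHT alone (TR 4-OHT) or vehicle (TR vehicle). The parental, sensitive cells, called PAR here, received vehicle only (PAR vehicle), so there was no group of parental cells on either drug. 4-OHT is the active metabolite of tamoxifen and binds the estrogen receptor, and erdafitinib is an inhibitor of the fibroblast growth factor receptor kinases. Doses were 5 µM erdafitinib and 1 µM 4-OHT, and vehicle was 0.05% DMSO. All cells were left to attach for 24 h in their own growth medium, kept for 48 h in phenol red-free medium with 2% charcoal-stripped serum, and then treated for 120 h. TR cells had been grown with 2% charcoal-stripped serum and 1 µM 4-OHT, and PAR cells with 5% whole serum and no 4-OHT. Each state is represented by 1 line, so resistance, the history of culture and any other difference between these lines cannot be told apart. The design text describes the 3 libraries per group as biological replicates without further detail. The p-values therefore reflect the spread among these libraries alone, and part of it may be technical.

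Secreted and membrane proteins fold in the ER with the help of Hsp70 and Hsp90 family chaperones, lectin chaperones that bind their sugars, and oxidoreductases that form disulfide bonds. When unfolded proteins accumulate, the membrane sensors IRE1, PERK and ATF6 leave the chaperone BiP and signal to the nucleus, where spliced XBP1, ATF4 and cleaved ATF6 raise transcription of chaperones, of the machinery that sends misfolded proteins back to the cytosol for degradation, and of genes of amino acid supply. Splicing of XBP1, cleavage of ATF6 and phosphorylation of the sensors were not measured by these counts per gene.

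Library totals ranged from 6946684 to 28717380 counts (median 22304029), and 14.5 to 25.7% of counts came from mitochondrial genes. EPCAM, an epithelial surface protein, lay between 89.4 and 158 CPM (counts relative to the size of the library) throughout, and the leukocyte gene PTPRC did not exceed 0.161 CPM. ESR1, the estrogen receptor, was at 251, 190 and 195 CPM in TR vehicle, against 662, 589 and 476 CPM in PAR vehicle. Of 10 luminal markers, 3 were lower in TR vehicle than in PAR vehicle (ESR1, FOXA1 and PGR) and GATA3 was higher, with a median log2 fold change of 0.06. Their summed level was 1995 to 3820 CPM in TR vehicle and 6281 to 7018 CPM in PAR vehicle, where PGR alone was at 2766 to 4679 CPM. The summed level of 18 markers of other cell types was 19.2 to 41.1 CPM in TR vehicle (5 at 0 counts) and 11.9 to 29.7 CPM in PAR vehicle (13 at 0 counts). Only 4 of these 18 were high enough to be tested, and 2 of them, RGS5 (log2 fold change 3.84) and ADIPOQ, which did not exceed 0.524 CPM in either group, were higher in TR vehicle. The part of these markers in the results below was not tested. Libraries of the same group also differed along an axis that held 49.5% of the variance within groups and followed the GC content of genes (Spearman's rho 0.732 across genes, which are not independent). TR vehicle replicate 1 stood at the low end for GC-rich genes and PAR vehicle replicate 3 at the high end. Over the fifth of tested genes richest in GC, their mean deviations from their group were -1.03 and 0.90 on the log2 scale. TR vehicle replicate 1 was below both other TR vehicle libraries in 11 of the 13 tested genes of the list with a GC content over 50%, and above both in 18 of the 22 others.

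Most genes of the list were lower in resistant than in parental cells, both on vehicle. Of the 35 tested genes, 24 were lower in TR vehicle (edgeR quasi-likelihood test, Benjamini-Hochberg adjusted p under 0.05), where 16% of all tested genes were lower, and 1 gene, WFS1, was higher, where 19.9% of all tested genes were higher. A further 10 genes did not pass the test. Of the 24 lower genes, 22 were lower by at least 2-fold, against 9.43% of all tested genes. In 26 genes all 3 TR vehicle libraries were below all 3 PAR vehicle libraries, which held for 18.5% of all tested genes. The median log2 fold change was -1.20 over the 35 genes and 0.07 over all tested genes. Summed over the 36 genes, the level was 10770, 10850 and 10230 CPM in TR vehicle, against 30120, 30590 and 29750 CPM in PAR vehicle. These sums were 1.06% of counts in TR vehicle and 3.02% in PAR vehicle (CPM are scaled by TMM factors). Without HSPA5 the sums were 9812, 10050 and 9516 CPM in TR vehicle and 23050, 23500 and 22960 CPM in PAR vehicle. In bulk RNA, fewer cells with high levels and less RNA per cell cannot be told apart.

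**Figure D1:**
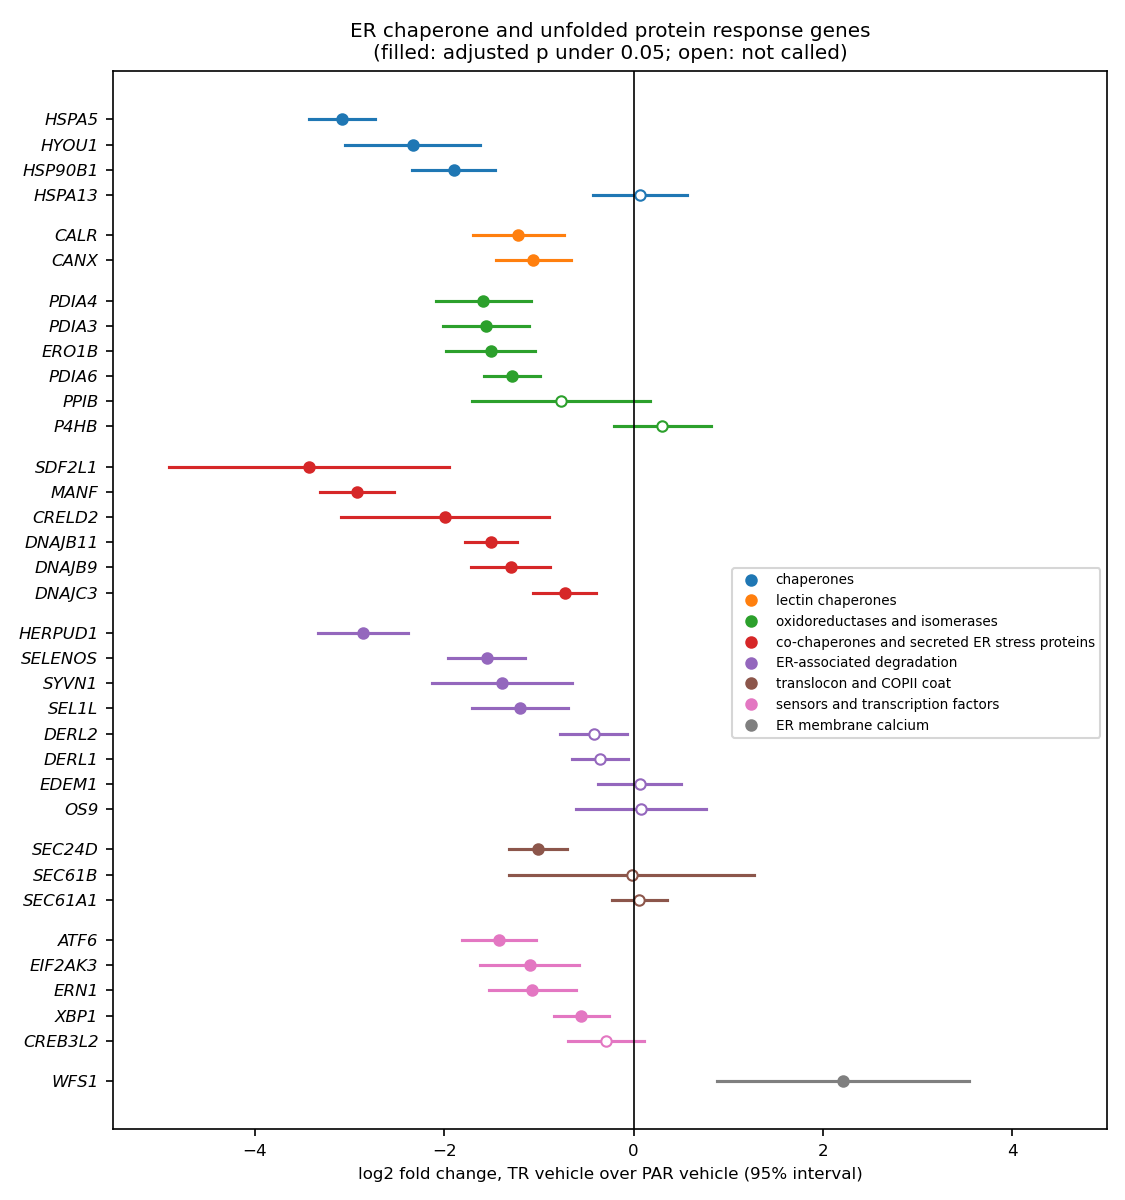
Log2 fold change of each of the 35 tested genes in TR vehicle over PAR vehicle (x axis), with its 95% interval as a bar, grouped by role (colours). Filled points had an adjusted p under 0.05 and open points were not called. SDF2L1 lay farthest left at -3.43, most groups lay left of 0, and WFS1 lay at 2.21.

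Among the ER chaperones, 3 of 4 were lower. HSPA5 (chromosome 9, 125234853 to 125241382, minus strand) encodes BiP, the Hsp70 of the ER lumen that holds the stress sensors inactive. Its level was 955, 797 and 717 CPM in TR vehicle, against 7073, 7086 and 6788 CPM in PAR vehicle. The groups were far apart and tight, with means of 823 ± 121 CPM in TR vehicle and 6982 ± 169 CPM in PAR vehicle (SD, n = 3 each). The difference was 8.48-fold lower (log2 fold change -3.08, SE 0.16, edgeR adjusted p = 5.19e-09). HSP90B1 (chromosome 12, 103930107 to 103953931, plus strand) encodes GRP94, the Hsp90 of the ER. It was at 1737, 1261 and 1137 CPM in TR vehicle, against 5404, 5365 and 4680 CPM in PAR vehicle, a 3.74-fold lower level with no overlap (log2 fold change -1.90, SE 0.20, edgeR adjusted p = 6.15e-06). HYOU1 (chromosome 11, 119044188 to 119057227, minus strand) encodes GRP170, a large Hsp70-related nucleotide exchange factor of BiP. It was at 189, 440 and 444 CPM in TR vehicle, against 1712, 1462 and 2234 CPM in PAR vehicle. TR vehicle replicate 1 was the lowest library, and the groups did not overlap (5.04-fold lower, edgeR adjusted p = 8.49e-05). HSPA13, a further Hsp70-like ATPase of the ER, did not follow them. Its level was 284, 149 and 177 CPM in TR vehicle and 206, 212 and 165 CPM in PAR vehicle, with overlapping groups (log2 fold change 0.07, 95% interval -0.43 to 0.56, edgeR adjusted p = 0.85). HSPA5, HSP90B1 and PDIA3 have processed pseudogenes of similar sequence, and read pairs that mapped to several places were left out of the counts, so part of their reads may be missing in every library.

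Both lectin chaperones were lower. CALR encodes calreticulin, the soluble lectin chaperone and calcium store of the lumen. It was at 995, 2092 and 1773 CPM in TR vehicle, against 3219, 3750 and 4350 CPM in PAR vehicle (2.33-fold lower, edgeR adjusted p = 0.000706). CANX encodes calnexin, its membrane-bound relative. It was at 2039, 1327 and 1424 CPM in TR vehicle, against 3632, 3502 and 2849 CPM in PAR vehicle (2.08-fold lower, edgeR adjusted p = 0.000496). In both genes every TR vehicle library was below every PAR vehicle library. TR vehicle replicate 1 was the lowest library for the GC-rich CALR (55.4% GC) and the highest TR vehicle library for CANX (44.9% GC).

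Of the 6 oxidoreductases and isomerases, 4 were lower. PDIA3, the disulfide isomerase that works on glycoproteins bound to the lectin chaperones, was at 1031, 762 and 679 CPM in TR vehicle, against 2570, 2684 and 2038 CPM in PAR vehicle (2.95-fold lower, edgeR adjusted p = 5.76e-05). PDIA4, another disulfide isomerase, was at 91.9, 180 and 168 CPM in TR vehicle, against 360, 477 and 486 CPM in PAR vehicle (3.00-fold lower, edgeR adjusted p = 0.000123). Groups did not overlap in either gene. PDIA6, a disulfide isomerase that also binds BiP and IRE1, was at 149, 200 and 184 CPM in TR vehicle, against 380, 455 and 464 CPM in PAR vehicle (2.44-fold lower, edgeR adjusted p = 6.05e-06). ERO1B, an oxidase that recharges disulfide isomerases, was at 54.9, 31.7 and 38.0 CPM in TR vehicle, against 132, 122 and 102 CPM in PAR vehicle (2.85-fold lower). These groups were apart as well. P4HB, the most studied disulfide isomerase and a subunit of collagen prolyl 4-hydroxylase, was at 390, 778 and 701 CPM in TR vehicle and 411, 468 and 635 CPM in PAR vehicle. TR vehicle replicate 1 was its lowest library and the other TR vehicle libraries its highest. The log2 fold change of P4HB was 0.30 (edgeR adjusted p = 0.348) and became 0.56 (adjusted p = 0.0396) without TR vehicle replicate 1 and -0.30 (adjusted p = 0.123) after correction for GC content and length. PPIB, cyclophilin B, a prolyl isomerase, was at 93.8, 228 and 219 CPM in TR vehicle and 158, 221 and 541 CPM in PAR vehicle. Its groups overlapped and PAR vehicle replicate 3 stood above all others (log2 fold change -0.77, edgeR adjusted p = 0.196). With the GC axis as a covariate the value for PPIB was -0.74 (adjusted p = 0.00344), and without PAR vehicle replicate 3 it was -0.04 (adjusted p = 0.94).

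All 6 co-chaperones and secreted ER stress proteins were lower, and this role held some of the largest differences of the list. MANF (chromosome 3, 51385291 to 51389397, plus strand) encodes a small secreted protein of the ER lumen that binds BiP. It was at 31.4, 30.5 and 22.95 CPM in TR vehicle, against 195, 239 and 210 CPM in PAR vehicle (7.58-fold lower, SE of the log2 fold change 0.18, edgeR adjusted p = 2.53e-08). SDF2L1 (chromosome 22, 21642302 to 21644299, plus strand) encodes a partner of the BiP co-chaperone DNAJB11. It was at 0.155, 1.68 and 1.81 CPM in TR vehicle, against 7.47, 21.6 and 13.9 CPM in PAR vehicle. The groups were apart, but this was a low gene, with 101 counts over the TR vehicle libraries and 607 over the PAR vehicle libraries (log2 fold change -3.43, SE 0.69, edgeR adjusted p = 0.00143). CRELD2, a secreted ER stress protein, was at 4.23, 11.6 and 11.4 CPM in TR vehicle, against 25.1, 20.01 and 63.5 CPM in PAR vehicle (log2 fold change -1.99, SE 0.51, edgeR adjusted p = 0.00759). The highest PAR vehicle library carried much of this value. Without PAR vehicle replicate 3 the log2 fold change of CRELD2 was -1.27 and the adjusted p was 0.0527.

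The J-domain proteins, which stimulate the ATPase of BiP, were graded. DNAJB11 (ERdj3), which binds unfolded chains together with BiP, was at 124, 106 and 102 CPM in TR vehicle, against 339, 277 and 327 CPM in PAR vehicle (2.85-fold lower, edgeR adjusted p = 7.20e-07). DNAJB9 (ERdj4), which also represses IRE1, was at 37.5, 25.5 and 25.4 CPM in TR vehicle, against 76.4, 75.6 and 65.9 CPM in PAR vehicle (2.46-fold lower, edgeR adjusted p = 0.000133). DNAJC3 (p58IPK), an inhibitor of PERK, was at 206, 139 and 155 CPM in TR vehicle, against 290, 292 and 246 CPM in PAR vehicle (1.66-fold lower, edgeR adjusted p = 0.00222). In each of these genes all TR vehicle libraries lay below all PAR vehicle libraries. The difference of DNAJC3 was not past a test against a 1.5-fold change (adjusted p = 0.21).

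ER-associated degradation, which draws misfolded proteins through the membrane to ubiquitin and the proteasome, was split, with 4 of 8 tested genes lower. HERPUD1 (chromosome 16, 56932142 to 56944864, plus strand) encodes a membrane protein that organises the HRD1 ubiquitin ligase complex. It was at 51.3, 45.8 and 46.0 CPM in TR vehicle, against 364, 409 and 263 CPM in PAR vehicle, with wide separation (7.24-fold lower, SE of the log2 fold change 0.22, edgeR adjusted p = 2.65e-07). SYVN1, the HRD1 ligase itself, was at 23.8, 62.7 and 64.9 CPM in TR vehicle, against 128, 110 and 159 CPM in PAR vehicle (2.62-fold lower, edgeR adjusted p = 0.00589). SEL1L, the adaptor of HRD1, was at 611, 306 and 371 CPM in TR vehicle, against 1134, 1039 and 785 CPM in PAR vehicle (2.30-fold lower, edgeR adjusted p = 0.00128). In these genes the groups were apart. SELENOS, a selenoprotein that links derlins to the p97 ATPase, was at 14.1, 18.5 and 13.9 CPM in TR vehicle, against 37.2, 52.3 and 47.5 CPM in PAR vehicle (2.93-fold lower, edgeR adjusted p = 2.05e-05).

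The derlins and lectins of ER-associated degradation did not pass the test. DERL1, a rhomboid-like protein of the retrotranslocation site, was at 104.3, 91.4 and 81.3 CPM in TR vehicle and 110, 135 and 110 CPM in PAR vehicle (log2 fold change -0.35, edgeR adjusted p = 0.0609). DERL2, its relative, was at 33.5, 35.8 and 31.5 CPM in TR vehicle and 39.5, 42.4 and 53.2 CPM in PAR vehicle (log2 fold change -0.42, edgeR adjusted p = 0.0616). In both derlins each TR vehicle library was below each PAR vehicle library, by a small margin. Both were called lower with the GC axis as a covariate (edgeR adjusted p = 0.00543 for DERL1 and 0.0128 for DERL2). They were also called after correction for GC content and length (edgeR adjusted p = 0.00169 and 0.0213). DERL1 was called without TR vehicle replicate 1 and with a CPM filter, and DERL2 without the 2 shallowest libraries and by the DESeq2 Wald test. Neither was called in the remaining alternatives. EDEM1, which trims mannose from misfolded glycoproteins, was at 127, 79.7 and 84.7 CPM in TR vehicle and 117, 91.8 and 69.9 CPM in PAR vehicle (log2 fold change 0.06, edgeR adjusted p = 0.839). OS9, a lectin that delivers such glycoproteins to SEL1L, was at 161, 401 and 366 CPM in TR vehicle and 244, 227 and 406 CPM in PAR vehicle (log2 fold change 0.08, edgeR adjusted p = 0.873). The groups of EDEM1 and OS9 overlapped. DERL3 had 0, 3 and 3 counts in the TR vehicle libraries and 20, 1 and 64 counts in the PAR vehicle libraries, and 0 to 2 counts in every drug-treated library. The PAR vehicle libraries differed widely among themselves in this gene.

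Of the 5 sensors and transcription factors, 4 were lower, by less than the chaperones with the largest differences. ATF6, the sensor cleaved in the Golgi to a transcription factor, was at 117, 78.5 and 84.9 CPM in TR vehicle, against 288, 258 and 207 CPM in PAR vehicle (2.68-fold lower, edgeR adjusted p = 3.35e-05). ERN1, which encodes IRE1, the nuclease that splices XBP1, was at 17.8, 15.9 and 20.1 CPM in TR vehicle, against 42.3, 30.0 and 40.9 CPM in PAR vehicle (2.102-fold lower, edgeR adjusted p = 0.00136). EIF2AK3, which encodes PERK, the kinase that slows translation, was at 46.4, 26.9 and 28.7 CPM in TR vehicle, against 84.2, 83.1 and 51.6 CPM in PAR vehicle (2.14-fold lower, edgeR adjusted p = 0.0029). All 3 sensors had groups that did not overlap. XBP1, whose spliced form drives genes of degradation and secretion, was at 609, 568 and 505 CPM in TR vehicle, against 806, 872 and 788 CPM in PAR vehicle (log2 fold change -0.55, SE 0.14, edgeR adjusted p = 0.00537). The groups of XBP1 were apart, but the difference was under 1.5-fold, and the adjusted p was 0.0504 without a filter on low counts and 0.0512 with only the groups compared in the fit. CREB3L2, a membrane-bound factor activated like ATF6, was at 109, 81.4 and 95.8 CPM in TR vehicle and 135, 130 and 86.5 CPM in PAR vehicle. Its groups overlapped (log2 fold change -0.29, edgeR adjusted p = 0.251).

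Of the 3 genes of the entry and exit gates of the ER, SEC24D was lower, and the ER calcium protein WFS1 was higher. SEC61A1 and SEC61B are subunits of the translocon, through which new chains enter. SEC61A1 was at 271, 345 and 334 CPM in TR vehicle and 309, 295 and 306 CPM in PAR vehicle, with a log2 fold change of 0.06 (95% interval -0.23 to 0.35). SEC61B was a lower and more variable gene, at 6.29, 19.3 and 17.9 CPM in TR vehicle and 10.99, 3.97 and 28.4 CPM in PAR vehicle (log2 fold change -0.02, edgeR adjusted p = 0.984). The groups of both overlapped, and the interval of SEC61B was wide. SEC24D, a cargo adaptor of the COPII coat that carries proteins out of the ER, was at 35.6, 34.5 and 33.7 CPM in TR vehicle, against 72.7, 72.8 and 63.7 CPM in PAR vehicle. The libraries of each group lay close together (2.01-fold lower, edgeR adjusted p = 7.74e-05). WFS1 (chromosome 4, 6269849 to 6303265, plus strand) encodes wolframin, an ER membrane protein of calcium balance whose loss causes Wolfram syndrome. It was at 17.7, 77.3 and 74.7 CPM in TR vehicle, against 5.62, 7.47 and 22.5 CPM in PAR vehicle (4.62-fold higher, SE of the log2 fold change 0.62, edgeR adjusted p = 0.0124). TR vehicle replicate 1 was below PAR vehicle replicate 3, so the groups overlapped. The same libraries stood at opposite ends of the GC axis, and WFS1 is rich in GC (61.2%). The part of that axis in the overlap was not tested. The call of WFS1 was lost without PAR vehicle replicate 1 (adjusted p = 0.0532) and without PAR vehicle replicate 2 (adjusted p = 0.0529).

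Levels of different genes were compared per unit of length. The length was the exon length given with the counts, 6530 bases for HSPA5 and 2802 for CALR. It may exceed that of the transcripts present, and the ranks depend on it. In CPM, HSPA5 was above CALR in PAR vehicle (means of 6982 and 3773 CPM). In TPM, counts scaled by gene length, CALR was the highest gene of the list in both, at 1538 ± 662 TPM in TR vehicle and 3294 ± 1347 TPM in PAR vehicle (SD, n = 3 each). HSPA5 was the fourth at 322 ± 2.25 TPM in TR vehicle and the second at 2545 ± 596 TPM in PAR vehicle. PDIA3 was the second at 495 ± 33.3 TPM in TR vehicle and the third at 1343 ± 144 TPM in PAR vehicle. The mean TPM of HSPA5 in TR vehicle was thus below those of PDIA3 and XBP1 (475 ± 31.5 TPM), whereas in PAR vehicle it was above both. WFS1 was at 24.2 ± 15.8 TPM in TR vehicle and 5.05 ± 5.14 TPM in PAR vehicle, near the bottom of the list in PAR cells. In each PAR vehicle library CALR was above HSPA5 (2303, 2752 and 4828 TPM against 2171, 2232 and 3233 TPM). No test was run between genes.

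Promoters of ER chaperone genes are known for the ER stress element (ERSE), which ATF6 binds together with the CCAAT-binding factor NF-Y, and for ERSE-II, a compact relative. The windows searched were RefSeq promoters on GRCh38.p14 from 250 bases before to 50 after each gene's start, available for 32 of the 36 genes and for 27305 genes in all. Both strands were searched for CCAAT and CCACG with any 9 bases between them (ERSE), ATTGG and CCACG with any 1 base between them (ERSE-II) and TGACGTGG (the unfolded protein response element, UPRE). ERSE was in 7 of the 32 windows (21.9%), against 22 of all 27305 (0.0806%). ERSE-II was in 3 of the 32 (9.38%), against 15 of all (0.0549%), and UPRE in 1 of the 32 (3.13%), against 217 of all (0.795%). ERSE and ERSE-II are known from such promoters, so these shares describe the windows and are not a test. The upstream stretches below are shown because they belong to the genes with the largest differences that hold such letters. They end where the annotation of the count files begins the gene and read in its direction, with ERSE, ERSE-II and UPRE in capitals.
HSPA5 (chr9:125241383-125241593, minus strand): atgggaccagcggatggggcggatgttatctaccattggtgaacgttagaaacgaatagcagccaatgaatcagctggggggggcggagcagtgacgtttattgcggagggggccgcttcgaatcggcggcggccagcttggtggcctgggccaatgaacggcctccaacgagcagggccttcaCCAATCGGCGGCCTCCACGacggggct
HERPUD1 (chr16:56931892-56932141, plus strand): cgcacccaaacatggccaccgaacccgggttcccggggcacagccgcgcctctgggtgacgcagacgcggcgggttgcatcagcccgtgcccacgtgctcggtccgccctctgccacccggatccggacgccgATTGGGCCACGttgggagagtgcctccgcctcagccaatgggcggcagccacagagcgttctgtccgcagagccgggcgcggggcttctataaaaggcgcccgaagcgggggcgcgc
SDF2L1 (chr22:21642052-21642301, plus strand): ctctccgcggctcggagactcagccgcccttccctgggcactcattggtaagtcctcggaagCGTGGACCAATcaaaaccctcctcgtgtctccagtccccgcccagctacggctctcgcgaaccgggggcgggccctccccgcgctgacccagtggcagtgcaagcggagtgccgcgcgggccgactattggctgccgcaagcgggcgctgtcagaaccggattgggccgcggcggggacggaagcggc
HYOU1 (chr11:119057228-119057455, minus strand): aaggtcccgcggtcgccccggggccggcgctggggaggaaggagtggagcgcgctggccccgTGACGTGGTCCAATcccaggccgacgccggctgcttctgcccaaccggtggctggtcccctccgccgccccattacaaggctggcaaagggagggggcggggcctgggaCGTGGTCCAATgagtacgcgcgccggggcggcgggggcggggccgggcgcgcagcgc

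In HSPA5 the capitals are 1 ERSE, 66 to 48 bases before the RefSeq start. HERPUD1 has 1 ERSE-II on its own strand, 117 to 107 bases before the start, and SDF2L1 has 1 on the opposite strand, 188 to 178 bases before the start. HYOU1 has 2 on the opposite strand, 185 to 175 and 79 to 69 bases before the start, and its UPRE, 188 to 181 bases before the start, overlaps the farther one. HSP90B1 held a pair of ERSE, and the other genes with ERSE were CALR, CANX, CRELD2, ERO1B and XBP1. The sites differ in the bases between the fixed ends and are given in the direction that reads CCAAT first.
HSPA5: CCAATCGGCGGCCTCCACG
HSP90B1, farther site: CCAATCGGAAGGAGCCACG
HSP90B1, nearer site: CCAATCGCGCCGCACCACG
CALR: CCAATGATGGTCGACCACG
CANX: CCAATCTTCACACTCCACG
CRELD2: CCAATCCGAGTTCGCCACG
ERO1B: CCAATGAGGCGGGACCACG
XBP1: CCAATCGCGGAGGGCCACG

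All 10 genes of the list with ERSE or ERSE-II were lower in TR vehicle than in PAR vehicle, with a median log2 fold change of -1.95. Of the 22 tested genes of the list with a window and neither element, 12 were lower and WFS1 was higher, with a median of -0.92. MANF, 7.58-fold lower, was among these 22. In some genes the 250 bases before the RefSeq start lay wholly inside the gene as the count files place it. Among the 22 these were PDIA6, P4HB, DNAJB11, DERL2, ERN1, EIF2AK3 and HSPA13. Among the 10 they were HSP90B1, CANX and CRELD2. Only exact matches in the window were counted, so a gene with neither may hold an element elsewhere. Over all 11389 tested genes with a window, 1873 were lower and 2319 higher, and the median was 0.06. Outside the list, 7 tested genes held ERSE, and 3 of them were lower, FICD (log2 fold change -1.51), EIF2A (-1.25) and SERP1 (-1.24). FICD encodes the enzyme that AMPylates BiP and SERP1 a protein of the translocon, and the windows of SERP1 and EIF2A share 210 bases. TMEM120A (-1.14), ALG12 (-0.93), ZNF17 (-0.08) and TRIM5 (0.41) held ERSE as well and were not called. The window of ALG12 shares 295 bases with that of CRELD2, a gene of the list. A further 9 tested genes outside the list held ERSE-II, of which SETD3 was lower (-0.62) and CLEC4F (2.09), SHCBP1 (1.77) and PLS3 (2.14) were higher. CLEC4F was a very low gene, at 0.929, 0.861 and 0.479 CPM in TR vehicle, against 0.168, 0 and 0.109 CPM in PAR vehicle. Genes outside the list were named here after their values were seen. A match is a description of letters in a window, and binding was not measured.

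**Figure D2:**
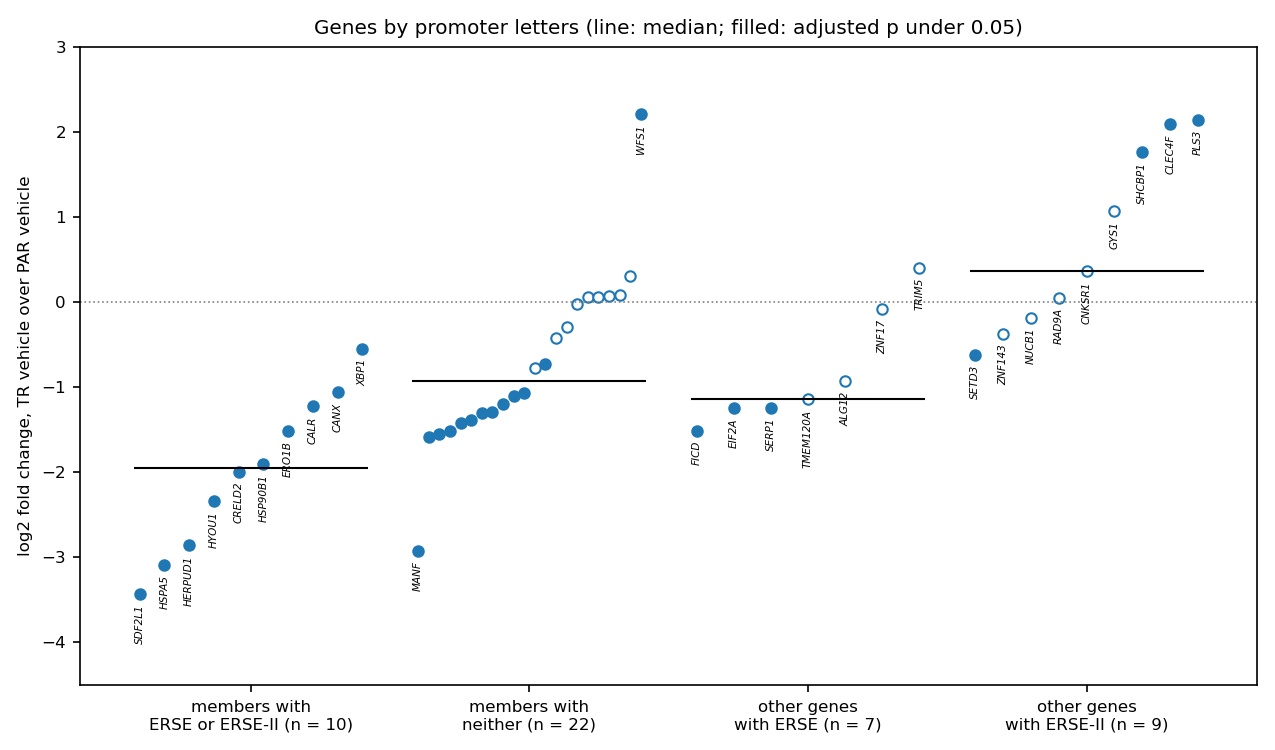
Log2 fold change in TR vehicle over PAR vehicle (y axis) of genes grouped by the letters found in their promoter window, with the median of each group as a line; filled points had an adjusted p under 0.05. The median was -1.95 over the 10 genes of the list with ERSE or ERSE-II, -0.92 over the 22 with neither, -1.14 over 7 other genes with ERSE and 0.36 over 9 other genes with ERSE-II.

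The lower level held in resistant cells on each drug. Relative to PAR vehicle, 24 genes were lower in TR combination (15.2% of all tested genes lower), 26 in TR erdafitinib (15.7%) and 26 in TR 4-OHT (16.2%). The numbers of higher genes were 0 in TR combination (19.4% of all tested genes higher), 0 in TR erdafitinib (19.5%) and 1, WFS1, in TR 4-OHT (19.2%). These comparisons share the PAR vehicle libraries and are not independent. With TR vehicle the same 24 genes were lower in all 4, and the share of all tested genes lower in all 4 was not counted. Their medians over the 35 genes were -1.19, -1.23 and -1.17, where those over all tested genes were 0.03, 0.04 and 0.02. HSPA5 was at 907, 986 and 760 CPM in TR combination, 687, 727 and 787 CPM in TR erdafitinib and 733, 693 and 781 CPM in TR 4-OHT, all far below the 6788 to 7086 CPM of PAR vehicle. The log2 fold changes of HSPA5 against PAR vehicle were -2.98, -3.25 and -3.25 in the same order of groups. HERPUD1 was at 55.8, 64.0 and 56.0 CPM in TR combination, 44.7, 47.5 and 51.5 CPM in TR erdafitinib and 45.3, 82.3 and 50.5 CPM in TR 4-OHT. TR 4-OHT replicate 2, a library of low depth, was its highest TR library and still below all PAR vehicle libraries. DERL1 and DERL2 were called lower in TR erdafitinib (log2 fold changes -0.38 and -0.49, edgeR adjusted p = 0.0466 and 0.0343) and in TR 4-OHT (-0.40 and -0.70, edgeR adjusted p = 0.0351 and 0.00479). Of 17 alternative settings, the call of DERL1 was lost in 13 in TR erdafitinib and in 7 in TR 4-OHT, that of DERL2 in 8 and in 1. The call of XBP1 was lost in 12 in TR erdafitinib and in 8 in TR combination, and that of SYVN1 in 4 in TR 4-OHT. The SYVN1 call was lost without PAR vehicle replicate 3, TR 4-OHT replicate 1 or TR 4-OHT replicate 3 (adjusted p = 0.0551, 0.0544 and 0.068). WFS1 was at 22.4, 25.2 and 48.7 CPM in TR combination, 52.3, 26.4 and 18.8 CPM in TR erdafitinib and 71.8, 40.1 and 35.3 CPM in TR 4-OHT. It was called higher than in PAR vehicle only in TR 4-OHT of these drug-treated groups (log2 fold change 2.00, edgeR adjusted p = 0.0206), with 1.39 (adjusted p = 0.0927) in TR combination and 1.41 (adjusted p = 0.086) in TR erdafitinib. Without PAR vehicle replicate 3 the log2 fold changes of WFS1 were 2.31 (adjusted p = 0.0164) in TR combination and 2.34 (adjusted p = 0.015) in TR erdafitinib, both called. Without PAR vehicle replicate 1, PAR vehicle replicate 2 or TR 4-OHT replicate 1 the call in TR 4-OHT was lost (adjusted p = 0.0798, 0.0771 and 0.0862).

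**Figure D3:**
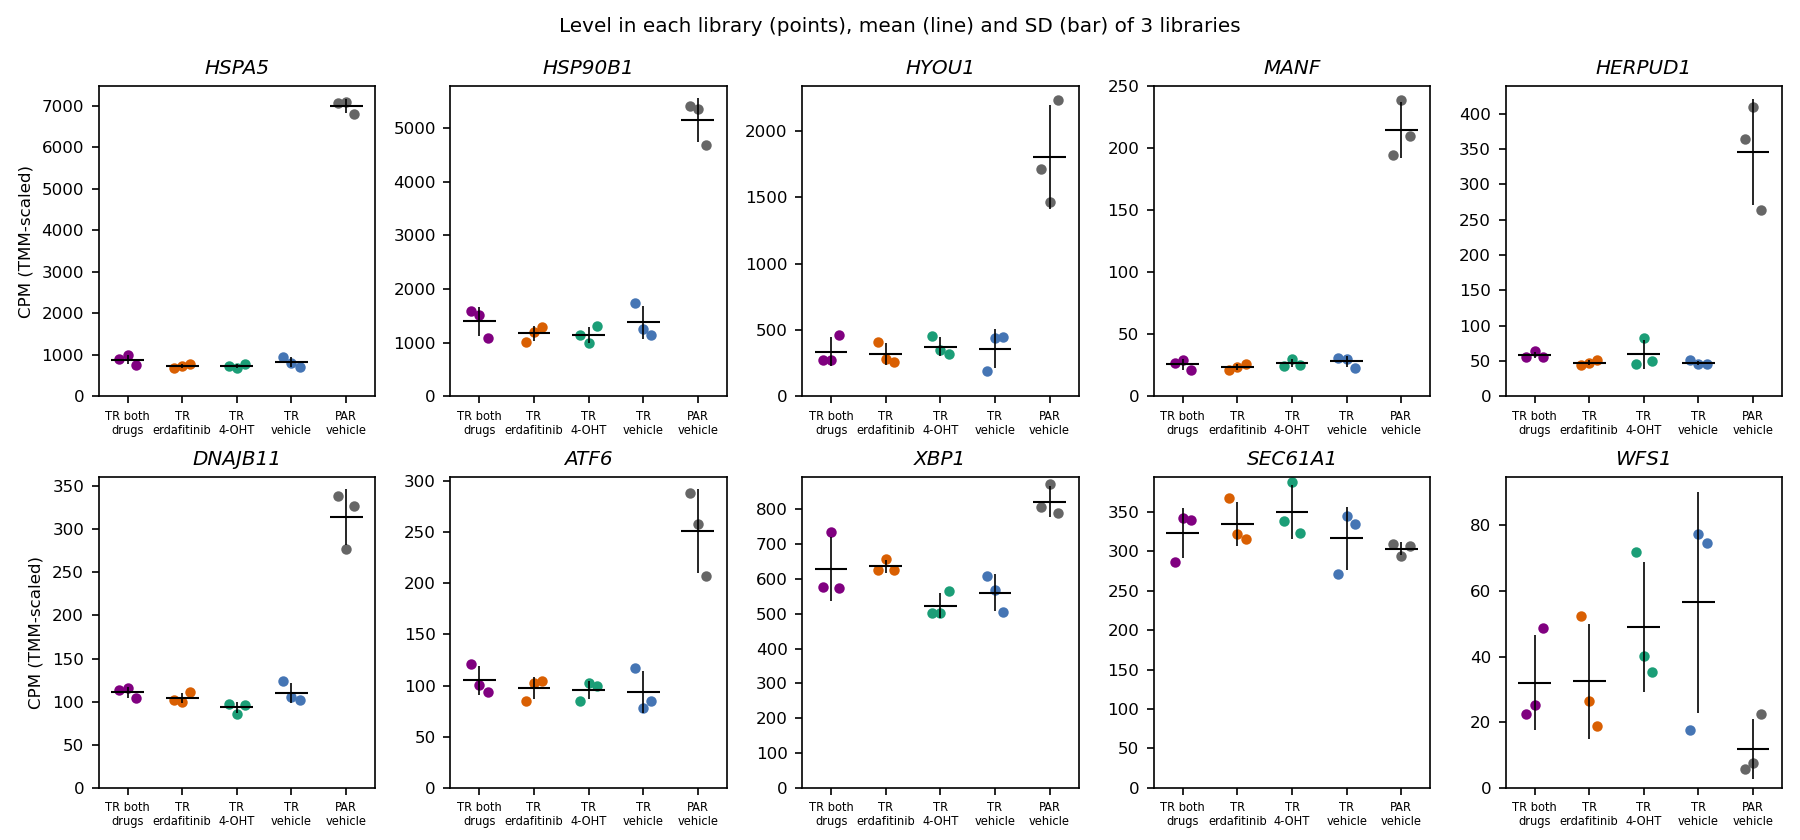
CPM (y axis) of 10 genes in each library of the 5 groups (x axis, TR groups left of PAR vehicle), with the mean as a line and the SD of 3 libraries as a bar. HSPA5 lay at 687 to 986 CPM in all TR libraries and at 6788 to 7086 CPM in PAR vehicle, whereas SEC61A1 lay at 271 to 388 CPM in TR libraries and 295 to 309 CPM in PAR vehicle, and WFS1 was widely spread in TR cells.

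Within resistant cells no gene of the list was called in any drug comparison, by edgeR or by the DESeq2 Wald test. The share of all tested genes called was 0% for TR 4-OHT against TR vehicle, 0.0925% for TR erdafitinib against TR vehicle, 0.642% for TR combination against TR 4-OHT and 0% for TR combination against TR erdafitinib. Erdafitinib averaged over the absence and presence of 4-OHT, which uses 6 libraries on each side, called 1.71% of all tested genes. The interaction of erdafitinib and 4-OHT called 0%. At an unadjusted p under 0.05 the averaged comparison held 1 gene of the list (11.7% of all tested genes passed) and the other 5 comparisons held 0. Of all 16210 tested genes, 127 passed for TR 4-OHT against TR vehicle and 700 for TR erdafitinib against TR vehicle. Counts of 0 in those comparisons therefore do not set the list apart. The gene of the list in the averaged comparison was XBP1. It was at 577, 736 and 574 CPM in TR combination and 625, 657 and 626 CPM in TR erdafitinib, against 502, 502 and 565 CPM in TR 4-OHT and 609, 568 and 505 CPM in TR vehicle. TR combination replicate 2 was the highest library, and libraries with and without erdafitinib overlapped (log2 fold change 0.22, 95% interval 0.02 to 0.43, unadjusted p = 0.0336 and adjusted p = 0.364 by edgeR). SEC24D was at 29.7, 29.8 and 31.9 CPM in TR combination and 32.2, 32.2 and 31.3 CPM in TR erdafitinib, against 33.5, 43.6 and 31.7 CPM in TR 4-OHT and 35.6, 34.5 and 33.7 CPM in TR vehicle. Libraries on erdafitinib were mostly at the low end of a narrow range (log2 fold change -0.18, edgeR adjusted p = 0.538). WFS1 had a log2 fold change of -0.71 on erdafitinib, with a 95% interval of -1.60 to 0.19 (edgeR adjusted p = 0.592).

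The intervals show how large a drug difference these libraries could have missed. Of the 35 genes, the 95% interval lay within a 2-fold change either way in 30 genes for TR 4-OHT against TR vehicle, in 30 for TR erdafitinib against TR vehicle, in 30 for TR combination against TR 4-OHT, in 31 for TR combination against TR erdafitinib, in 33 for averaged erdafitinib and in 26 for the interaction. For HSPA5 the averaged erdafitinib value was 0.05 (95% interval -0.18 to 0.28), beside -3.08 for TR vehicle against PAR vehicle. For HERPUD1 it was -0.00 (95% interval -0.32 to 0.31), and for DNAJB9 -0.19 (95% interval -0.49 to 0.10). The interaction values of HSPA5 and HSP90B1 were 0.43 (95% interval -0.02 to 0.89) and 0.52 (95% interval -0.08 to 1.12), and neither was called. A p that misses the threshold does not show that levels were equal.

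**Figure D4:**
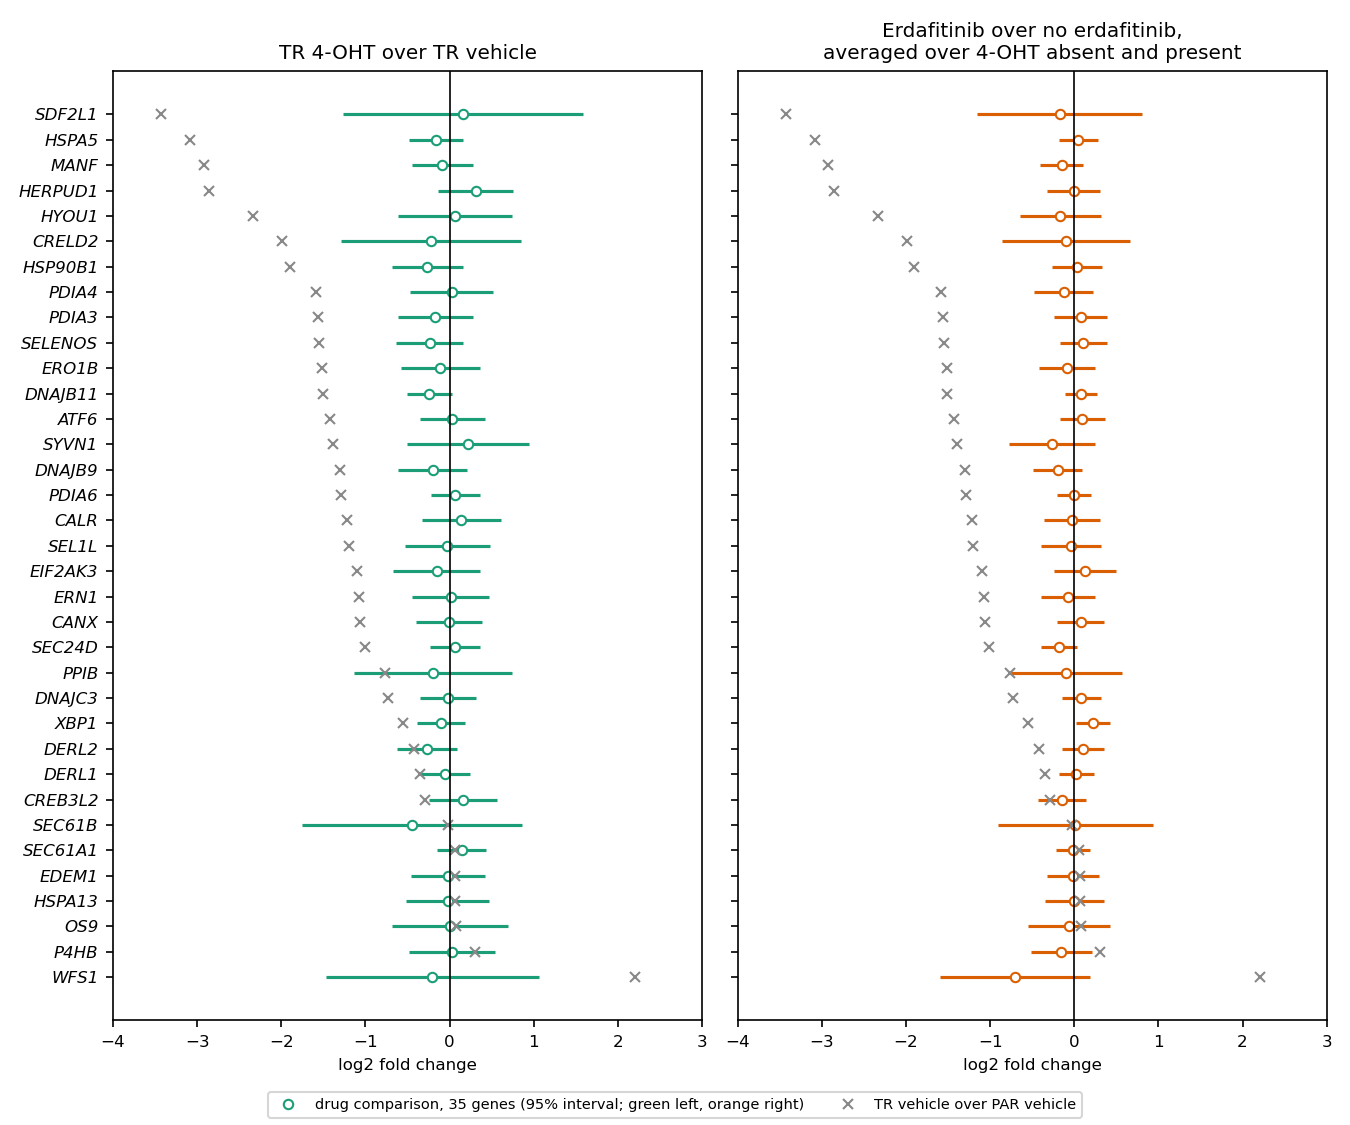
Log2 fold changes (x axis) of the 35 tested genes for TR 4-OHT over TR vehicle (left, green) and for erdafitinib averaged over 4-OHT absent and present (right, orange), with 95% intervals, beside TR vehicle over PAR vehicle (grey crosses). Drug values lay around 0 for most genes while the crosses ran down to -3.43, and the widest intervals belonged to SDF2L1, WFS1, SEC61B and CRELD2.

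Further genes of the same compartments were read from lists that were not picked by how their genes moved, although earlier results of these data were known when they were written. The ATF4 and CHOP branch, the arm of the response that PERK and other kinases of EIF2S1 switch on, was lower in 15 of 23 tested genes and higher in 1, with a median log2 fold change of -1.37. TRIB3, a pseudokinase induced by ATF4 and CHOP, was at 9.18, 17.6 and 14.9 CPM in TR vehicle, against 136, 187 and 157 CPM in PAR vehicle (11.4-fold lower, edgeR adjusted p = 1.21e-06). ATF4 itself was at 85.2, 115 and 102 CPM in TR vehicle, against 245, 315 and 279 CPM in PAR vehicle (2.77-fold lower, edgeR adjusted p = 2.73e-06). WARS1, a tRNA synthetase, was 3.56-fold lower. In all of these the groups were apart. DDIT3, which encodes CHOP and was named after its values were seen, was at 10.8, 13.7 and 11.5 CPM in TR vehicle, against 79.96, 68.3 and 73.0 CPM in PAR vehicle (6.12-fold lower, edgeR adjusted p = 5.04e-06). DDIT4, an inhibitor of mTORC1 that is also induced by hypoxia and glucocorticoids, went the other way, at 24.3, 38.6 and 44.3 CPM in TR vehicle, against 6.04, 5.56 and 8.48 CPM in PAR vehicle (log2 fold change 2.38, edgeR adjusted p = 6.32e-06).

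The counts of the other lists stand beside 16% lower and 19.9% higher over all tested genes. Of 32 further genes of ER folding and oxidation, 5 were lower and 5 higher (median 0.04), with 10 lower and 5 higher when TR vehicle replicate 1 was left out. ERP44, which retains oxidoreductases in the early secretory pathway, was at 38.1, 32.7 and 28.4 CPM in TR vehicle, against 85.8, 94.7 and 98.6 CPM in PAR vehicle (2.81-fold lower, edgeR adjusted p = 5.13e-06), TXNDC11 was lower (-1.15) and TMX4, a membrane thioredoxin, higher (0.98). Of 28 further genes of ER-associated degradation, 5 were lower, among them SELENOK (-1.83), FAF1 (-0.92) and HERPUD2 (-0.84), and 8 were higher, among them NPLOC4 (1.55), a cofactor of p97, and TMUB1 (1.70). Of 32 genes of the translocon, signal peptidase and oligosaccharyltransferase, 12 were lower and 2 higher (median -0.30). RPN1, a subunit of the oligosaccharyltransferase, was at 169, 191 and 171 CPM in TR vehicle, against 494, 571 and 437 CPM in PAR vehicle (2.83-fold lower, edgeR adjusted p = 1.37e-06), and SPCS2 was lower, whereas SEC61A2 (1.67) and KRTCAP2 (0.84) were higher. Of 41 genes of transport between ER and Golgi, 12 were lower and 3, ERGIC2 (1.13), SEC24C (0.59) and SEC23A (0.59), were higher (median -0.29). KDELR3 and KDELR2, receptors that return escaped chaperones to the ER, were 3.96-fold and 2.31-fold lower, and BET1, a SNARE, was 2.91-fold lower. Of 18 genes of ER calcium handling, 3, NUCB2 (-1.59), ATP2A2 (-0.98), the calcium pump of the ER, and CISD2 (-0.76), were lower and ITPR2 (0.89) was higher.

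Among 22 other transducers and regulators of the response, 6 were lower and 5 higher. MAP3K5, the kinase ASK1, was higher (log2 fold change 3.04), as were NFYA (0.90), a subunit of NF-Y, and CREB3L1, which was near 0 in PAR vehicle (1.34, 4.56 and 2.16 CPM in TR vehicle, against 0, 0 and 0.146 CPM in PAR vehicle). EIF2AK1, another kinase of EIF2S1, was lower (-1.19). Of 33 cytosolic and nuclear heat shock genes, 2, BAG1 (-2.21) and FKBP4 (-1.07), a co-chaperone of steroid receptors, were lower and 12 higher (median 0.40). BAG3, a partner of Hsp70 in selective autophagy, was at 29.1, 57.2 and 53.3 CPM in TR vehicle, against 14.7, 16.4 and 17.8 CPM in PAR vehicle (log2 fold change 1.51, edgeR adjusted p = 0.000211). Of 16 mitochondrial chaperones and proteases, 3 were lower, among them HSPA9 (-1.56), the mitochondrial Hsp70, and GRPEL2 (-0.75), and SPG7 (0.59) was higher, where 16% of all tested genes were lower. With libraries corrected for GC content and length, the median of all tested genes moved to -0.19, with 32.3% lower and 19.6% higher. The counts then were 19 lower and 1 higher for the ATF4 and CHOP branch, 13 and 3 for further folding genes, 13 and 7 for further degradation genes, 18 and 1 for the translocon list, 25 and 2 for transport to the Golgi, 9 and 5 for other transducers, 10 and 0 for mitochondrial chaperones, and 4 and 11 for cytosolic heat shock genes. The medians of further folding genes, other transducers and calcium genes turned negative, at -0.40, -0.16 and -0.17, so their direction depends on that scaling.

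**Figure D5:**
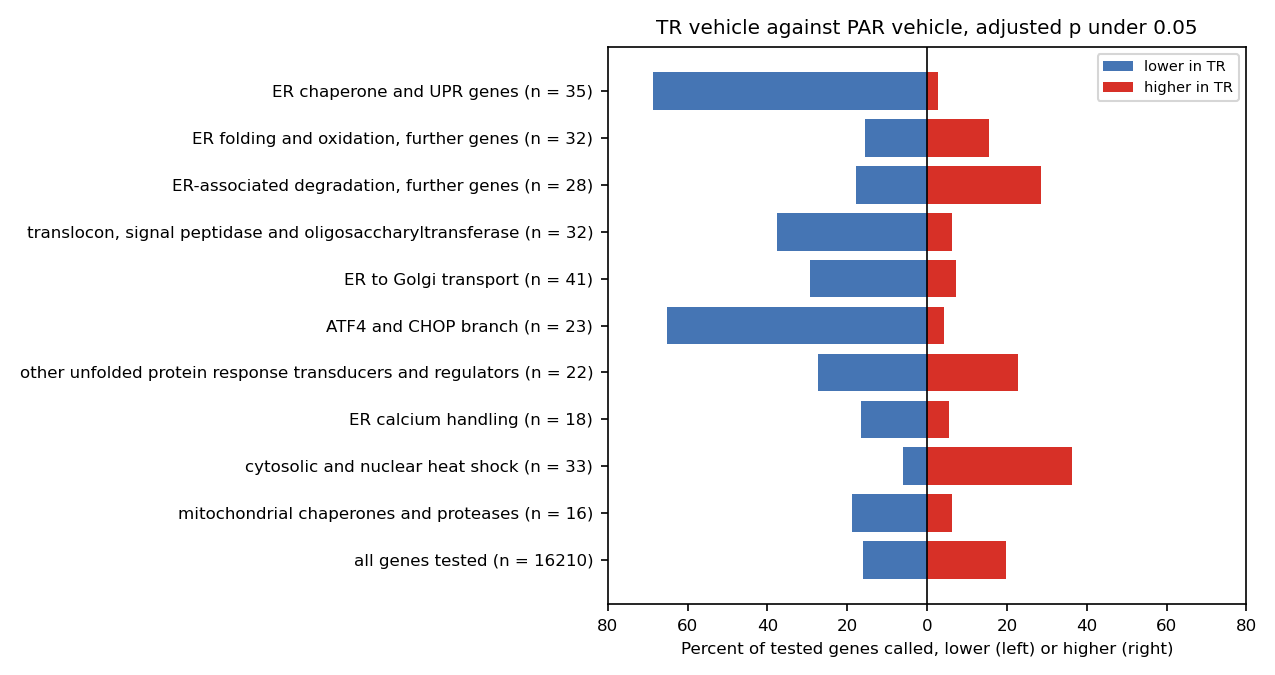
Share of tested genes called lower (left, blue) or higher (right, red) in TR vehicle against PAR vehicle, in percent, for the ER list and 9 further lists of the ER, cytosol and mitochondria (marker lists not drawn), with all tested genes at the bottom. Among the lists drawn, lower calls were most frequent in the ER chaperone and unfolded protein response list (24 of 35) and the ATF4 and CHOP branch (15 of 23), and higher calls in the cytosolic and nuclear heat shock list (12 of 33).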

How the data were processed

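RNA was measured in 15 libraries made with a stranded TruSeq kit and read as paired 150 bp ends, per the labels' protocols. The submitters' processing notes name HISAT2 2.1.0 and GRCh38 for the alignment. The authors deposited raw counts for each gene of Ensembl 104, obtained by featureCounts 2.0.1 with paired, reverse-stranded settings, per the file headers. Their command line kept the default of dropping multi-mapped reads. The processing notes differ in the version, featureCounts 1.4.6-p1. Trimming is not given in the sources used here.

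Symbols were matched for 60463 of the 60664 IDs. The tests ran in edgeR 4.0.16 under R 4.3.3. The filter filterByExpr, given the 5 groups, retained 16210 genes and removed 44454, and TMM factors were between 0.907 and 1.10. One quasi-likelihood model held the 15 libraries, with 1 mean for each group and without a replicate block (10 residual degrees of freedom, common dispersion 0.095, a biological coefficient of variation of 30.8%). Calls needed an adjusted p (Benjamini-Hochberg, over all tested genes) under 0.05. SE values come from F and the log2 fold change, and intervals are at 95%. CPM use TMM-scaled totals. In single libraries, 3 counts were worth 0.105 to 0.432 CPM. TPM divide counts by the exon length in the file headers. Within groups no library was a copy of another, since counts of libraries of a group differed by a chi-square per gene of at least 8.05. Pairs across groups were not compared in this way. The fit was tested on simulated counts before use.

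GC content came from GENCODE release 29 (98.9% of tested genes) and promoter windows from RefSeq on GRCh38.p14. The 36 genes, the further lists and the rule for named genes were chosen with earlier results of these data known. The lists were further ER folding genes, further degradation genes, the translocon with signal peptidase and oligosaccharyltransferase, ER to Golgi transport, the ATF4 and CHOP branch, other transducers, ER calcium, cytosolic heat shock (HSPB11 was not matched), mitochondrial chaperones, luminal markers and markers of other cell types. All 36 genes may be named. From each list the 3 genes with the smallest p in TR vehicle against PAR vehicle were named, with up to 3 called against the majority. In drug comparisons, where no gene of the list was called, the 3 with the smallest p for averaged erdafitinib were named.

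Alternatives were the Wald test of DESeq2 1.42.0, its size factors used within edgeR, no filter, a CPM filter (1 or more in 3 or more libraries), fitting just the groups of each comparison, a block for the replicate number, testing for more than a 1.5-fold change, the first within-group component as a covariate, correction for GC content and length, library totals without mitochondrial genes, leaving out the 2 shallowest libraries, and leaving out each library in turn.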

Additional observations from a re-analysis of the deposited data

How the results depend on the processing

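Of the 25 genes of the list called in TR vehicle against PAR vehicle, 21 kept their call in all 17 alternatives. The exceptions were CRELD2, DNAJC3, XBP1 and WFS1, as given above. The share of all called genes that kept their call in all 17 was not counted, so 21 of 25 has no background beside it. The number of lower genes was lowest at 22 with a test against a 1.5-fold change, where 8.04% of all tested genes were lower. It was highest at 28 after correction for GC content and length, where 32.3% were lower. When each library was left out in turn it ranged from 23 to 26, where 11.3 to 17% of all tested genes were lower. That range counts DERL3 where the filter then let it be tested. Deviations of same-numbered libraries correlated at over 0.1 in 13 of 30 pairs (-0.83 to 0.77, median -0.03). The GC axis held 49.5% of the variance of these deviations, so they do not show whether a number marks a shared batch. With the replicate number as a block 24 genes were lower and 1 higher, where 15% and 19.2% of all tested genes were. The number of higher genes in TR vehicle (1) was 0 without the 2 shallowest libraries and with only the groups compared, and 0 to 2 when each library was left out. Of all tested genes, 18.6%, 11.7% and 16.9 to 20.5% were higher under these settings. In TR 4-OHT against PAR vehicle (1 higher) the number for the list was 0 with the 1.5-fold test and without the 2 shallowest libraries. It was 2 with the within-group component as a covariate, and 0 to 1 when each library was left out. In that order, 1975 of 16210, 2828 of 16740, 4865 of 16210 and 2670 to 3111 of all tested genes were higher. In TR erdafitinib and in TR combination (0 higher) the number for the list was 1 with no filter, with that covariate, with the GC and length correction and with the DESeq2 Wald test. It was 0 to 1 when each library was left out. In that order, 3244 of 31360, 4846 of 16210, 3201 of 16210, 3432 of 31358 and 2663 to 3131 of all tested genes were higher in TR erdafitinib. In TR combination they were 3240 of 31360, 4776 of 16210, 3171 of 16210, 3471 of 31358 and 2651 to 3039. For averaged erdafitinib (0 called) the number of called genes of the list was 1 with the covariate, WFS1 (log2 fold change -0.66, edgeR adjusted p = 0.0182). It was 1 with the GC and length correction, DNAJB9 (-0.32, edgeR adjusted p = 0.0357). The shares of all tested genes called under these settings are not given here. HSPA13 in TR combination against PAR vehicle turned from 0.04 to -0.36 after the GC and length correction (adjusted p = 0.0323). The causes were not tested. Of 6370 values of single genes of the list under the alternatives, 6163 kept direction and side of the threshold, 72 lost and 50 gained a call, 84 moved by more than their spread and 1 reversed. With motifs counted on the gene strand alone, 4 of the 32 windows held ERSE and 1 held ERSE-II. Depth limits the low genes: SDF2L1 had 101 counts over the TR vehicle libraries and DERL3 at most 3 in any TR library.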
